A study of Mus musculus with 4 samples.

Results

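Footprint counts of 7 mouse genes that XBP1 and ATF6 induce during the unfolded protein response were compared between MLE-12 cells given 1-nitropyrene and control cells. The genes were Xbp1, Dnajb9, Dnajc3, Sdf2l1, Herpud1, Manf and Creld2. They were taken from the deposited count table as a fixed list of 7 Ensembl IDs out of the 53465 IDs in the table. The table itself holds no gene symbols, and the symbols used here are those given with the list. The study used ribosome profiling, which sequences the short RNA fragments that ribosomes shield from nuclease, in MLE-12, a mouse lung epithelial line that carries the SV40 large T antigen and stands in for alveolar type 2 cells in culture. The groups were 1-nitropyrene cells (replicates 2 and 3), which received 5 µM of this nitrated polycyclic aromatic hydrocarbon of diesel exhaust for 12 h, and control cells (replicates 1 and 2), cultured without it. The sources used here name no vehicle for the control cells, and both groups were washed with cycloheximide, which holds ribosomes on the mRNA, before lysis. The labels do not tell whether replicates were separate cultures, so the spread between these libraries may be technical. The p-values and intervals of the main test use that spread as estimated over all genes tested, not from each gene alone.

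The unfolded protein response is the signalling system by which cells adjust the folding capacity of the endoplasmic reticulum (ER). When unfolded proteins accumulate, the sensor IRE1 splices the Xbp1 mRNA in the cytoplasm so that an active XBP1 transcription factor can be made, and the sensor ATF6 moves to the Golgi, where proteases release its DNA-binding part. Both factors act through promoter elements of their target genes, among them the ER stress response element (ERSE), in which a CCAAT box bound by NF-Y lies a fixed distance from a CCACG site bound by ATF6. Alveolar type 2 cells secrete surfactant proteins and depend on this folding machinery.

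The promoters are shown first because they hold a property of these genes that the footprint counts do not contain. The 250 bases before the annotated start site were read from RefSeq (GRCm38.p6, the assembly behind mm10) for the 6 genes with an entry, which leaves out Manf, and searched on both strands. The spaced ERSE, CCAAT and CCACG with 9 free bases between them, matched once upstream of Dnajc3 (positions -105 to -87 from the start site) and once upstream of Creld2 on the opposite strand (positions -126 to -108). The compact form ERSE-II, ATTGG and CCACG with 1 free base between them, matched once upstream of Herpud1 (positions -52 to -42). One of these 2 forms was thus found for 3 of the 6 genes, against 0.143% of the 32851 promoters in the table. The genes were listed as ones that XBP1 and ATF6 induce, and both factors act through such elements. This contrast is therefore partly built into the list and is no independent result. The Herpud1 window also held TGATGCAA, a form of the composite element that ATF4 and C/EBP proteins use, at positions -112 to -105 on the opposite strand, a match present in 0.791% of promoters. The 8-letter UPRE, TGACGTGG, matched in 0 of the 6 windows and in 0.563% of all promoters. In the stretches below, capitals mark the fixed letters of the motifs named for that stretch, and other matches are left unmarked. The Herpud1 stretch carries TGATGCAA and then ERSE-II, and the Dnajc3 and Creld2 stretches carry the spaced ERSE. The Dnajb9 stretch carries ACGTG, the core of XBP1-binding sites, read on both strands as a palindrome. ACGTG also matched upstream of Herpud1 (positions -45 to -41) and Dnajc3 (positions -149 to -145), where it is not marked. The Sdf2l1 stretch carries CCAAT boxes and a CCACG site without the ERSE spacing.
Herpud1, chr8:94386305-94386399, plus strand: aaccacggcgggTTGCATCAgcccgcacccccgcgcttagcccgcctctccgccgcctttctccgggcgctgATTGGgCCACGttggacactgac
Dnajc3, chr14:118937815-118937857, plus strand: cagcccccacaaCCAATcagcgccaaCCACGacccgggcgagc
Creld2, chr15:88819508-88819550, plus strand: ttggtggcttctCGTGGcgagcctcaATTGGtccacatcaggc
Dnajb9, chr12:44210158-44210187, minus strand: acaacagttttcCACGTGcgcgtagggcgc
Sdf2l1, chr16:17132384-17132458, minus strand: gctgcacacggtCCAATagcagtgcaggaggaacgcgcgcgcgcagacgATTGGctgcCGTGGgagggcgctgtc

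The short parts are common and overlap the longer elements: CCACG alone was found in 28.3% of all promoters, CCAAT in 33.8% and ACGTG in 16.6%. The Xbp1 window held none of the 7 motifs searched, which says only that these letters are not in this window. A match is a description of the sequence and was not tested for binding.

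**Figure D1:**
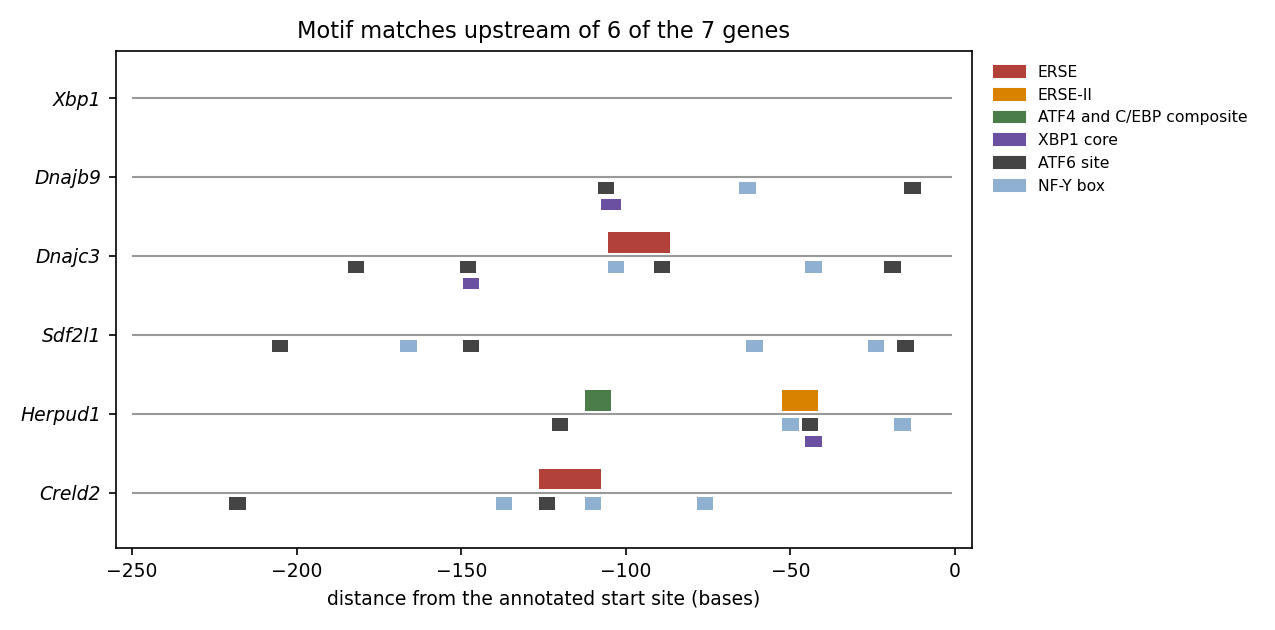
Matches of 6 motifs in the 250 bases before the annotated start site of 6 genes, with the distance from the start site in bases on the horizontal axis and 1 gene per line. Red and orange boxes (ERSE and ERSE-II) lie upstream of Dnajc3, Creld2 and Herpud1, the green box (ATF4 and C/EBP composite) upstream of Herpud1, and the line of Xbp1 holds no box.

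The 1-nitropyrene libraries held 1243186 and 1357034 counts and the control libraries 1261372 and 1136145. After TMM scaling, 1 count was worth 0.761 to 0.860 CPM (counts scaled to a library of 1e6), and a count of 0 allows up to 3 counts per library, or 2.28 to 2.58 CPM. Such limits cover counting error only. The 7 genes together had 697 and 699 counts in the 1-nitropyrene libraries and 618 and 552 in the control libraries, and Xbp1, Manf and Sdf2l1 gave 93.5% of these counts. Counts are per gene, so a higher value can come from more mRNA or from more ribosomes on each mRNA. A change in the share of cells that express a gene cannot be told apart from a change per cell. Levels are relative to each library, so a change in the total footprints per cell cannot be seen. No transcript or coding lengths were used, so levels are not compared between genes.

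No gene of the 7 passed the test between 1-nitropyrene and control cells. Of the 5 genes with enough counts to be tested, 0 were called by edgeR's quasi-likelihood test at a Benjamini-Hochberg adjusted p under 0.05. Among all 7719 genes tested the share called was 17.3%, with 9.68% higher and 7.58% lower in 1-nitropyrene cells, and it was 27.6% among the 3242 whose mean count reached 50, as it did for Xbp1, Manf and Sdf2l1. At an unadjusted p under 0.05, the edgeR test gave 3 of the 5, Xbp1, Herpud1 and Manf, all 3 with higher values in 1-nitropyrene cells, against 15.8% of genes tested that were higher at that threshold. The DESeq2 Wald test gave an adjusted p for 3 of the 7 genes, 0.311 for Manf, 0.431 for Xbp1 and 0.624 for Sdf2l1, and called 0 of them, against 11.2% of the genes with an adjusted p. Limma-voom called 0 of the 5 tested genes, against 16.2%. The values in single libraries nevertheless lay mostly to one side. In 4 of the 5 tested genes both 1-nitropyrene libraries lay above both control libraries in CPM, against 28.6% of the genes tested, and in Dnajc3 the groups overlapped. Dnajb9 and Creld2 did not pass the count filter and so have no counterpart in that share. Dnajb9 lay the same way on few counts. The order of the Creld2 libraries has no weight, as each was at or under the limit that a count of 0 allows. With libraries scaled to their total counts the number was 2 of the 5, Herpud1 and Manf, against 18.5% of the genes tested, since Xbp1 and Sdf2l1 then overlapped too. For a single value, the smallest p that an exact permutation test (two-sided) allows with 2 libraries against 2 is 0.333.

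**Figure D2:**
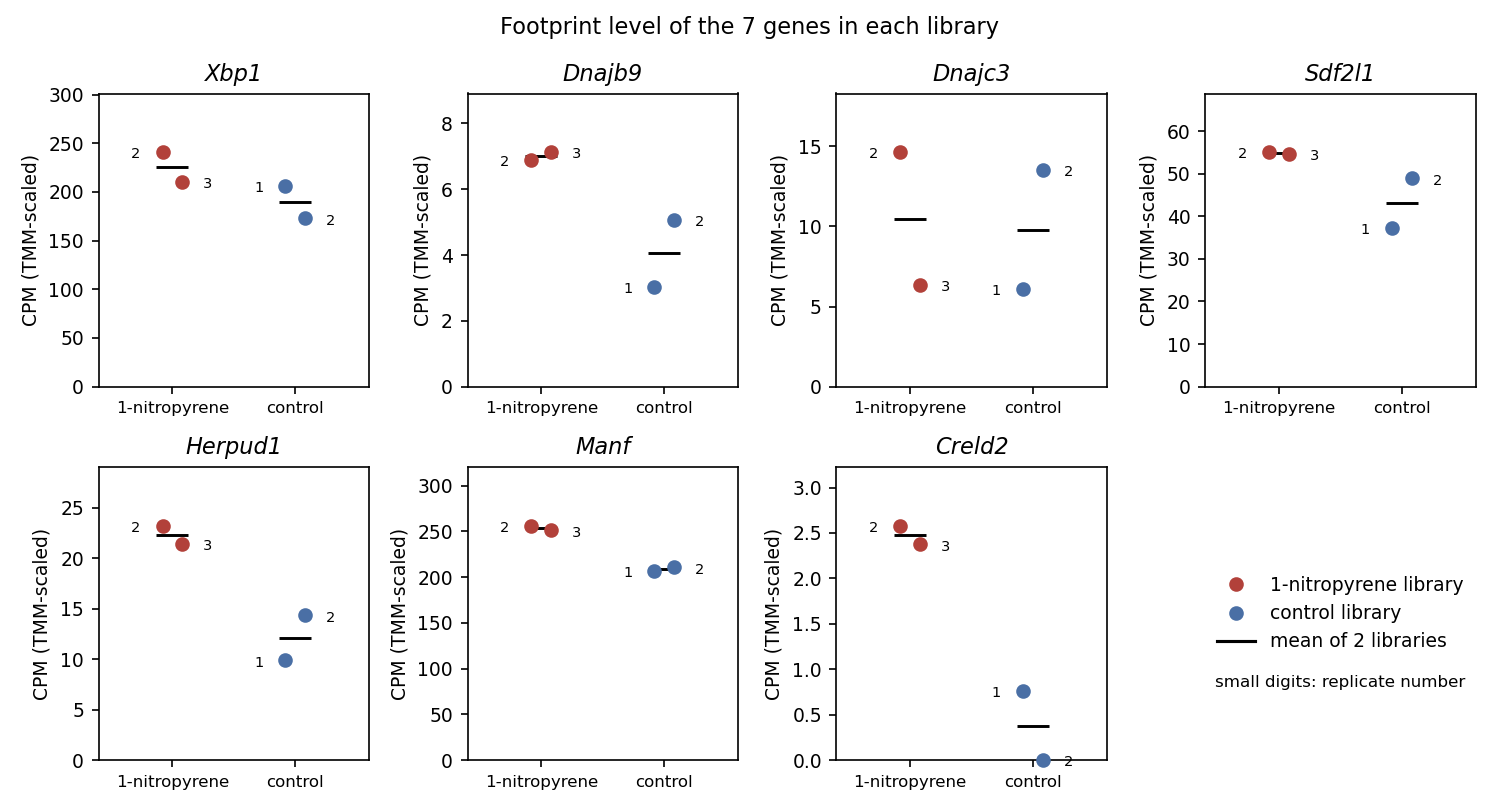
Footprint level of each gene in CPM after TMM scaling (vertical axes, each from 0 and on its own scale), with 1-nitropyrene libraries on the left and control libraries on the right; points are single libraries, bars the mean of 2. The groups overlap for Dnajc3 and lie apart in the other panels, on few counts for Dnajb9 and Creld2, and the gap between the nearest libraries is narrow for Xbp1.

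Xbp1 (ENSMUSG00000020484, chr11:5520641-5525993, GRCm38.p6) encodes the transcription factor of the IRE1 branch and is itself induced by ATF6. It had 280 and 266 counts in the 1-nitropyrene libraries and 271 and 205 in the control libraries. In CPM these were 241 and 211 in 1-nitropyrene cells and 206 and 173 in control cells. The lower 1-nitropyrene library and the higher control library were thus close together, and each group spread about as widely as the groups lay apart. The means were 226 ± 21.4 CPM in 1-nitropyrene cells and 190 ± 23.5 CPM in control cells (SD, n = 2 each). The fold change was 1.19, with a 95% interval of 1.02 to 1.38 that is not adjusted for the number of genes (log2 0.25 ± 0.11 SE, edgeR adjusted p = 0.12). With total counts in place of TMM the log2 fold change of Xbp1 was 0.081 (edgeR adjusted p = 0.669). RefSeq lists 2 proteins for Xbp1, and a count per gene does not separate ribosomes on the spliced mRNA from those on the unspliced one, so the splicing state was not measured.

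SDF2L1 is an ER-lumenal protein that works with J-domain co-chaperones of the chaperone BiP. Sdf2l1 (ENSMUSG00000022769, chr16:17130138-17132383) had 64 and 69 counts in the 1-nitropyrene libraries and 49 and 58 in the control libraries. These were 55.1 and 54.6 CPM in 1-nitropyrene cells and 37.3 and 48.9 CPM in control cells. The 1-nitropyrene libraries were nearly equal and the control libraries were not. The means were 54.9 ± 0.296 CPM in 1-nitropyrene cells and 43.1 ± 8.25 CPM in control cells (SD, n = 2 each), a fold change of 1.28 (95% interval 0.923 to 1.77, edgeR adjusted p = 0.326).

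DNAJC3, also known as p58IPK, and DNAJB9, also known as ERdj4, are J-domain proteins that deliver substrates to BiP or regulate its ATPase cycle, and DNAJB9 also restrains IRE1. Dnajc3 (ENSMUSG00000022136, chr14:118937932-118981702) had 17 and 8 counts in the 1-nitropyrene libraries and 8 and 16 in the control libraries. The difference inside either group was larger than that between the groups, with levels of 14.6 and 6.34 CPM in 1-nitropyrene cells and 6.09 and 13.5 CPM in control cells. The fold change was 1.07 with an interval of 0.534 to 2.15 (edgeR adjusted p = 0.926). The counts are thus compatible with no difference and with changes up to these limits in either direction. The span of Dnajc3 overlaps that of 1 other RefSeq gene, Gm4678, and how reads in such overlaps were counted is not given in the sources used here. The spans of the other 6 genes overlap no other gene of the RefSeq table.

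Dnajb9 (ENSMUSG00000014905, chr12:44205897-44210068) had 8 and 9 counts in the 1-nitropyrene libraries and 4 and 6 in the control libraries, too few to pass the count filter. These were 6.88 and 7.13 CPM in 1-nitropyrene cells and 3.04 and 5.06 CPM in control cells. The groups did not overlap, but the summed counts of 17 and 10 gave a ratio of 1.75 with an exact 95% counting interval of 0.758 to 4.28, which includes no difference.

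Herpud1 had the highest fold change of the 5 tested genes. HERPUD1 is a short-lived ER membrane protein of the HRD1 complex, which moves misfolded proteins out of the ER for degradation. Herpud1 (ENSMUSG00000031770, chr8:94386429-94395371) had 27 counts in each 1-nitropyrene library and 13 and 17 in the control libraries. These were 23.2 and 21.4 CPM in 1-nitropyrene cells and 9.89 and 14.3 CPM in control cells. Both 1-nitropyrene libraries lay above both controls, the nearest on 27 and 17 counts. The means were 22.3 ± 1.31 CPM in 1-nitropyrene cells and 12.1 ± 3.15 CPM in control cells (SD, n = 2 each). The fold change was 1.85, with a 95% interval of 1.07 to 3.18 (log2 0.88 ± 0.40 SE, edgeR adjusted p = 0.113). It lay above 95.1% of the fold changes of all genes tested, but it rests on 84 counts in all 4 libraries together. With 1 library left out, the log2 fold change of Herpud1 ran from 0.63 (without control replicate 1) to 1.17 (without control replicate 2).

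MANF and CRELD2 are ER-resident proteins that cells secrete under ER stress, and MANF binds BiP. Manf (ENSMUSG00000032575, chr9:106888753-106891938) had the most counts of the 7 genes, with 298 and 317 in the 1-nitropyrene libraries and 272 and 250 in the control libraries. These were 256 and 251 CPM in 1-nitropyrene cells and 207 and 211 CPM in control cells. Replicates of either group differed by a few CPM, far less than the gap between the groups. With 2 libraries per group, such closeness says little about the spread of this gene. The SE of the log2 fold change was nearly that of Xbp1 (0.108 against 0.114), whose replicates lay further apart. The means were 254 ± 3.78 CPM in 1-nitropyrene cells and 209 ± 2.85 CPM in control cells (SD, n = 2 each). The fold change was 1.21, with a 95% interval of 1.05 to 1.41 (log2 0.28 ± 0.11 SE, edgeR adjusted p = 0.0521), just short of the threshold. With DESeq2's size factors in place of TMM, Manf was called at an adjusted p of 0.0495 (edgeR, log2 fold change 0.28), with 9.77% of all genes tested called higher under that scaling. With total counts the log2 fold change of Manf was 0.12 (edgeR adjusted p = 0.488).

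Creld2 (ENSMUSG00000023272, chr15:88819646-88826681) had 3 counts in each 1-nitropyrene library, against 1 and 0 in the control libraries. The levels were 2.58 and 2.38 CPM in 1-nitropyrene cells and 0.761 and 0 CPM in control cells. Each library was at or under the limit that a count of 0 allows (2.53 CPM in the control library at 0), so no fold change is given, and the order of the libraries has no weight at this depth.

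**Figure D3:**
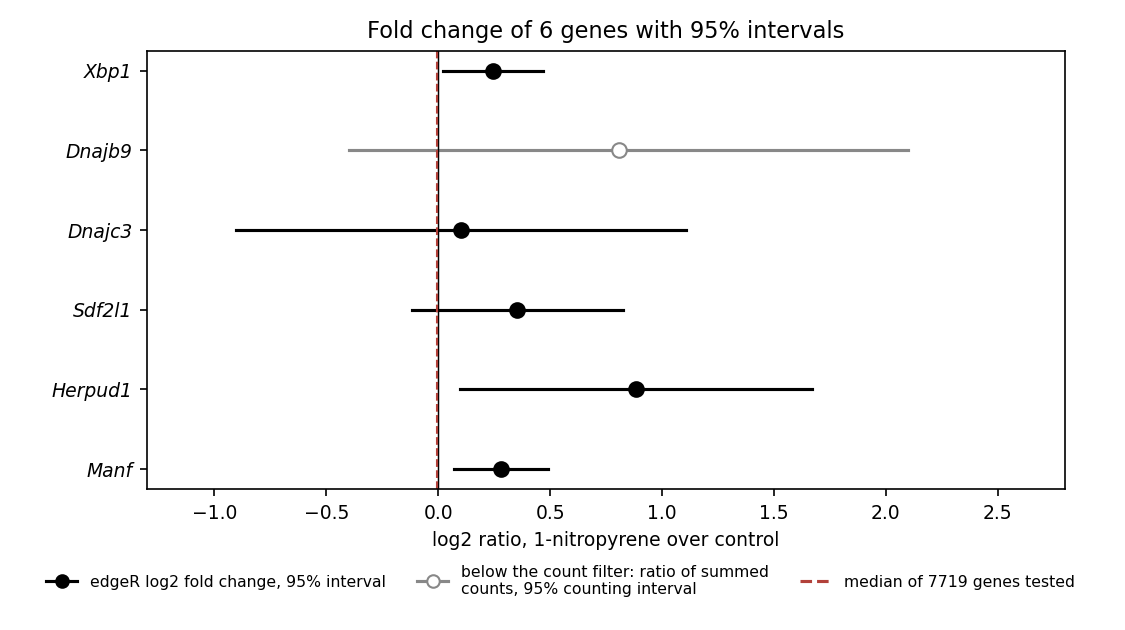
Log2 ratio of 1-nitropyrene over control cells (horizontal axis) for 6 genes with 95% intervals; filled points are edgeR fold changes, the open point of Dnajb9 is a ratio of summed counts with a counting interval, and Creld2 has no ratio. Intervals of Xbp1, Herpud1 and Manf lie above 0 before adjustment, and those of Dnajb9, Dnajc3 and Sdf2l1 include 0.

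Among the 5 tested genes the log2 fold changes ran from 0.10 for Dnajc3 to 0.88 for Herpud1. Their median was 0.28, against -0.0076 over all genes tested, and all 5 were above 0, as were 49.2% of the genes tested. These are counts and medians of a list chosen with results of these data known, and no test of the list was made. Intervals were narrowest for the best counted genes. Those of Xbp1 and Manf end at 1.38-fold and 1.41-fold, whereas those of Herpud1 and Dnajc3 extend to 3.18-fold and 2.15-fold.

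**Figure D4:**
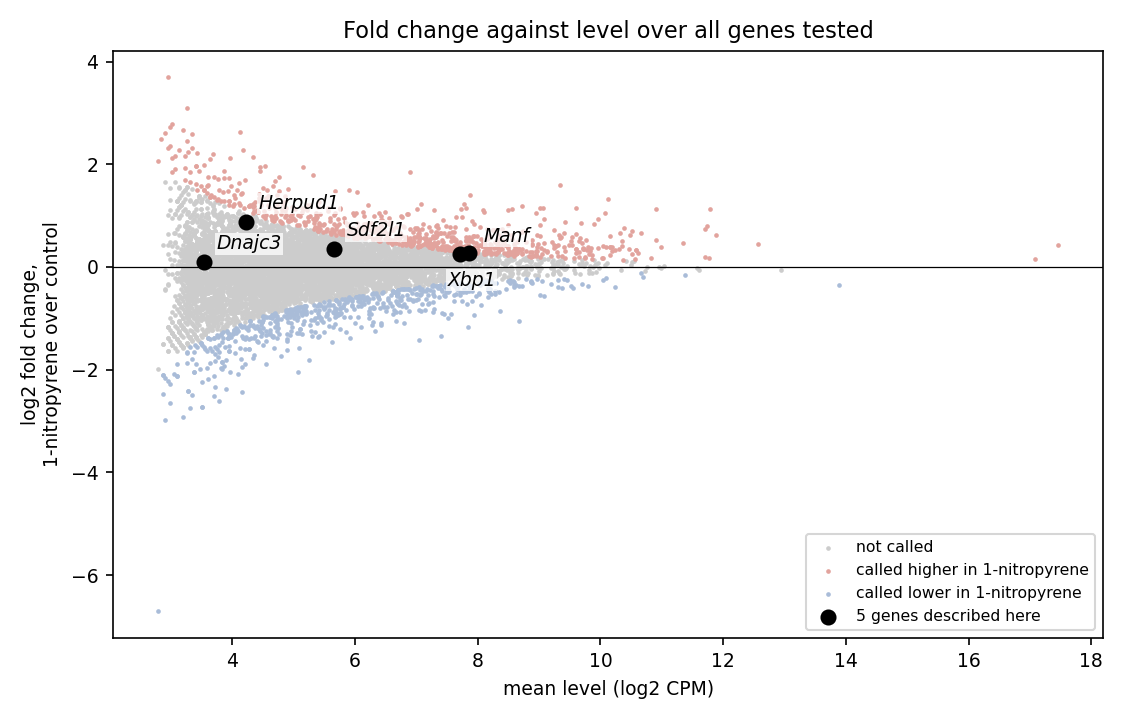
Log2 fold change of 1-nitropyrene over control cells (vertical axis) against mean level in log2 CPM (horizontal axis) for the 7719 genes tested; coloured points passed the edgeR test, and black points are the 5 tested genes named in the text. All 5 lie above 0 within the grey cloud of genes that were not called, Herpud1 and Manf near its upper edge.

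The footprint changes are set beside the promoter elements here as a description. Herpud1, with ERSE-II and the ATF4 and C/EBP composite, had a log2 fold change of 0.88, and Dnajc3, with a spaced ERSE, had 0.10. Sdf2l1 and Xbp1, in whose windows neither ERSE form was found, had 0.35 and 0.25. Dnajb9, whose window also held neither form, had a log2 ratio of summed counts of 0.81 on 27 counts in all. Creld2, the other gene with a spaced ERSE, was too scarce to place in this order, and intervals of the thinly counted genes overlap those of the others.

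The direction of 4 of the tested genes, Xbp1, Sdf2l1, Herpud1 and Manf, was the same under all 14 processing alternatives, and that of Dnajc3 turned in 3. The alternatives refit the same libraries and are not independent of each other. Scaling to total counts moved the median of all genes tested to -0.17 and that of the 5 genes to 0.12; such a scaling shifts all genes nearly alike. Leaving out control replicate 2 raised the median of the 5 genes to 0.56. Sdf2l1 was then at 0.56 and, without control replicate 1, at 0.16. Among the fits with a library left out, Xbp1 varied from 0.14 without control replicate 2 to 0.38 without control replicate 1. Manf stayed between 0.27 and 0.30 whichever library was left out. This narrow range follows from the closeness of its replicates and is no separate measure of precision.

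**Figure D5:**
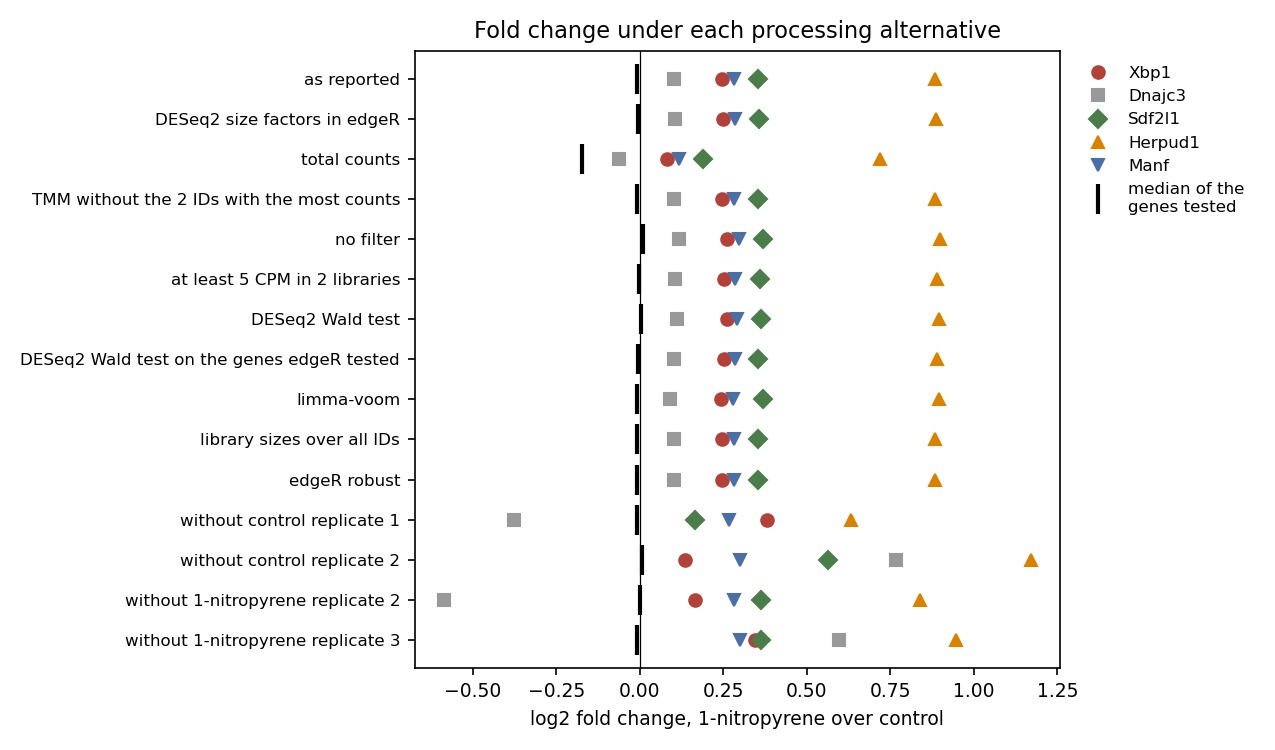
Log2 fold change of 1-nitropyrene over control cells (horizontal axis) for the 5 tested genes under the reported processing and 14 alternatives (1 per line); the black tick is the median over the genes tested. Herpud1 is rightmost on each line, Dnajc3 moves across 0, and total counts shift all markers to the left together.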

How the data were processed

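The authors deposited raw footprint counts per Ensembl gene ID, 1 column per library and 0 other sample columns. Per the submitters' processing notes, cutadapt, Bowtie, HISAT2, featureCounts and DESeq2 were used with build mm10; the sources used here give no versions, roles or settings. The members and lists were chosen with earlier results of these data known. Genes were filtered with edgeR's filterByExpr (minimum count 10, minimum total 15), scaled with TMM over the genes tested and fitted together by quasi-likelihood in edgeR 4.0.16 under R 4.3.3, without covariates. The code was tested on simulated data. The prior degrees of freedom were infinite, so each gene took its spread from the trend; standard errors derive from the F statistic. The ratio of Dnajb9 has an exact Clopper-Pearson interval. Replicates differed by more than counting noise (chi-square per degree of freedom 1.61 for 1-nitropyrene, 1.55 for control), so none was taken as a copy. All 7 members were to be named. The gene table gives an Ensembl ID for 0 of 49997 genes, so the other IDs have no names: the 7 pathway lists, the cell type markers of MLE-12 and the genes of most similar pattern were not analysed here. Alternatives used DESeq2 1.42.0 and limma 3.58.1.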

Additional observations from a re-analysis of the deposited data

How the results depend on the processing

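Over 14 alternatives, 70 of 73 combinations of a gene and an alternative gave a value above 0. All alternatives refit the same libraries, so these combinations are not independent and their number is no test of direction. The 3 below 0 were all of Dnajc3, with -0.062 under total counts and a range of -0.59 to 0.77 when 1 library was left out (-0.38 without control replicate 1, -0.59 without 1-nitropyrene replicate 2); the cause was not tested. With DESeq2's size factors in edgeR, 1 gene was called, Manf (log2 fold change 0.28, adjusted p = 0.0495); its adjusted p ran up to 0.488 over the alternatives. Over all genes tested, 1332 were called (747 higher, 585 lower). Total counts called 406 higher and 1110 lower. By DESeq2's Wald test 238 were higher and 77 lower (315 in all); restricted to the genes that edgeR tested, 243 were higher and 102 lower (345 in all). When 1 library was left out, its group's remaining sample was assumed to vary as the other group does, and the fit called 572 to 834, of which 382 to 480 were higher and 190 to 354 lower. Library sizes over all IDs were an alternative chosen after seeing the data. No paired analysis was possible because replicate number 2 is the only number that occurs in both groups. Footprint density per coding length and the alternatives for the pathway lists were not run, as no lengths or names were at hand. Depth limits Creld2, Dnajb9 and Dnajc3 most.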
